A study of Homo sapiens with 3 samples.

Results

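Chromosome 16 carried 1106 of the 23641 peaks of 8-oxo-7,8-dihydro-2'-deoxyguanosine (8-oxodG) in the deposited list, 510 on the short arm (16p) and 596 on the long arm (16q). They were taken as every row of the list on that chromosome in the hg18 build. The list came from DNA immunoprecipitation sequencing of MCF10A, a widely used immortal cell line from human breast epithelium that forms no tumours. The cells were arrested in G0, where they do not divide, and received no treatment. Genomic DNA was sonicated and precipitated with an antibody against 8-oxodG. The 3 samples form 1 group from 2 experiments, and the 1 list does not separate them, so no value has a replicate error. No input library or second condition was analysed here, and depth is unknown.

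8-oxodG forms when reactive oxygen attacks guanine in DNA. The lesion can pair with adenine during replication, which turns G:C into T:A, and it is removed by base excision repair that starts with the glycosylase OGG1. Chromosome 16 has a short arm rich in segmental duplications, a large block of heterochromatin beside the centromere on the long arm, and the common fragile site FRA16D in 16q23, inside the very long gene WWOX. Common fragile sites are regions that tend to break when replication is slowed. The long arm of chromosome 16 is often lost in breast cancer. No peak was assigned to a gene, and no sequence of a peak is shown, because no hg18 sequence or annotation was used. Genes named with a band stand for its textbook content, and their hg18 positions were not checked.

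Peaks were dense on both arms. Chromosome 16 held 14.02 peaks per Mb of sequenced contig (95% interval 13.2 to 14.9), against 8.26 (8.15 to 8.37) on the other 21 autosomes together, a ratio of 1.70 (1.60 to 1.80). Its density was the 4th highest of 22 autosomes, after chromosomes 19 (25.6), 20 (14.07) and 22 (14.06). The short arm had 14.6 peaks per Mb (13.32 to 15.9) and the long arm 13.6 (12.5 to 14.7), and these intervals overlap. Intervals on densities are exact Poisson intervals and those on ratios exact conditional binomial intervals. They cover counting error only and are too narrow where peaks cluster, as they do in this list. Differences between chromosomes were not tested, since peaks are not replicates of a condition, and ranks are given as descriptions.

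Peaks on chromosome 16 were also taller than elsewhere. The pileup, the number of fragments stacked at a peak's summit, had a median of 36 (95% interval 34 to 38, quartiles 21 and 57), against 25 on the other autosomes (quartiles 16 and 41). This was the highest median of the 22 autosomes. The long arm had a median of 37 and the short arm 34, the highest and the joint second highest (with 20q) of the 39 autosome arms with at least 50 peaks. Of all peaks in the list 10.2% had a pileup of 64 or more, and on chromosome 16 it was 241 of 1106, or 21.8% (exact Clopper-Pearson interval 19.4 to 24.3%). For a pileup of 122 or more the share was 1.04% of all peaks and 42 of 1106, or 3.80%, on chromosome 16. For both limits chromosome 16 had the largest share of the 22 autosomes.

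Fold enrichment, the authors' value for the height of a peak over its background, followed the pileup to a lesser extent. Its median was 13.4 on chromosome 16 (12.8 to 14.1) and 11.6 on the other autosomes, again the highest of the 22. The 39 arms were led by 16q (13.5) and 16p (13.304), ahead of 19p (13.2) and 10p (13.01). Of all peaks 10% had a fold enrichment of at least 27.2, and on chromosome 16 it was 169, or 15.3% (13.2 to 17.5%). In the top 1.00% of all peaks by fold, the share on chromosome 16 was 19 of 1106, or 1.72% (1.04 to 2.67%), the second largest.

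Widths differed less. The median peak on chromosome 16 spanned 497 bp (484 to 514, quartiles 388 and 653), and 450 bp on the other autosomes, and only chromosome 19 had a larger median (535 bp). Peaks of at least 1 kb made up 5.56% of all peaks and 100 of 1106, or 9.04% (7.42 to 10.9%), on chromosome 16. The median width was 521 bp (490 to 544) on 16p and 486 bp (471 to 505) on 16q, and these intervals overlap. Together the peaks covered 0.837% of the sequence of chromosome 16, against 0.445% on the other autosomes.

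**Figure D1:**
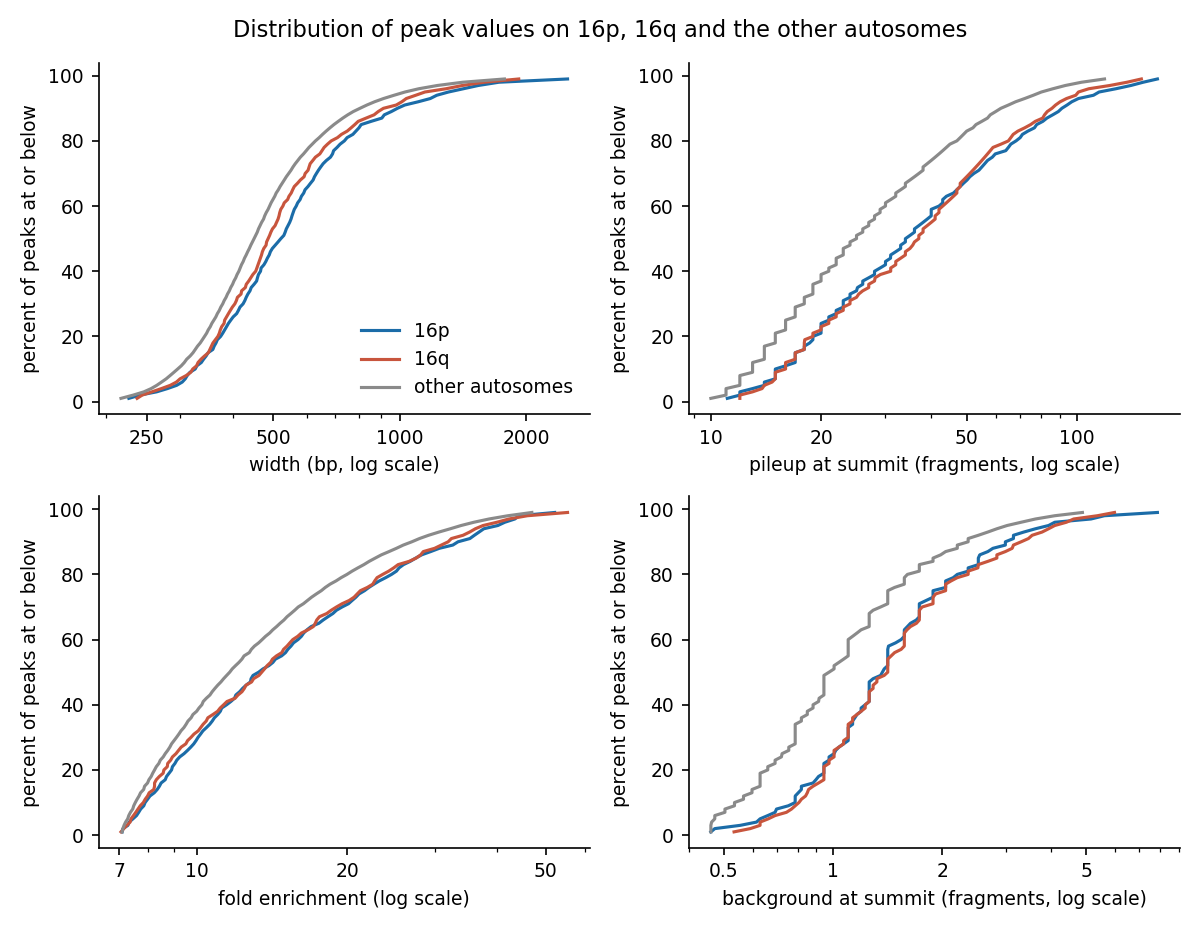
Percentiles 1 to 99 of width, pileup, fold enrichment and background (log x axes) for peaks on 16p (blue), 16q (red) and the other autosomes (grey). The curves of both arms lie to the right of the grey curve over most of the range in each panel, with the widest gaps in pileup (medians 34 and 37 against 25) and background (1.37 and 1.42 against 0.975).

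The background under the peaks was raised along most of the chromosome. The background at a summit, in fragments, was derived from pileup and fold enrichment. Its median was 1.38 on chromosome 16 (1.29 to 1.42, quartiles 1.01 and 1.95) and 0.975 on the other autosomes (quartiles 0.723 and 1.42). It was 1.37 on 16p and 1.42 on 16q, or 1.45 and 1.5 times the 0.944 of the median arm. Of all peaks 23.2% had a background below 0.7 fragments, and on chromosome 16 it was 79, or 7.14% (5.70 to 8.82%). At the upper end, 10.5% of all peaks and 221 on chromosome 16, or 19.98% (17.7 to 22.5%), reached 2.36 fragments.

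Few stretches of chromosome 16 had a background at the usual level. Among windows of 1 Mb on all autosomes, 46.1% had a median background below that of the median arm. On chromosome 16 it was 3 of 79 windows. These were the window from 32 Mb in 16p11.2 (0.912 fragments), the window from 68 Mb in 16q22.1 (0.755, from 1 peak) and the last window, from 88 Mb in 16q24.3 (0.661, from 7 peaks). Chromosome 8 (6 of 143 windows), chromosome 20 (1 of 59) and 19q (1 of 31) were alike in this respect, and their arms had medians of 1.42 to 1.57.

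Among these arms of like background, both arms of chromosome 16 had the highest fold enrichments, a difference that was not tested. The median fold enrichment was 13.5 on 16q and 13.304 on 16p, but 12.7 on 20q, 12.6 on 19q, 12.15 on 8p, 11.9 on 20p and 11.6 on 8q. Pileup was closer, with 37 on 16q and 34 on 16p and 20q, 33 on 19q and 8p, 31 on 8q and 30 on 20p. Density was highest on 19q at 28.5 peaks per Mb, and 16p and 16q lay between 20q (16.4) and 20p (11.2). Chromosome 8 had 10.4 on its short and 8.77 on its long arm.

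**Figure D2:**
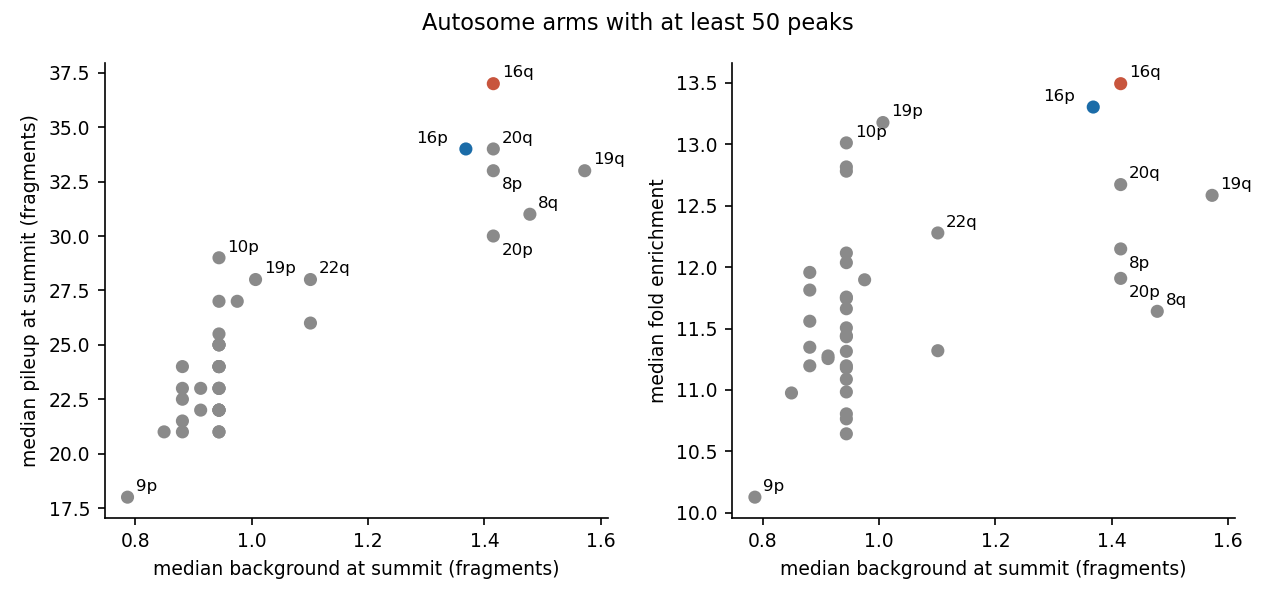
Median background at the summit (x axis, fragments) against median pileup (left) and median fold enrichment (right) for the 39 autosome arms with at least 50 peaks, each point 1 arm. The arms 16p (blue) and 16q (red) share a background near 1.4 with 8p, 8q, 20p, 20q and 19q, and have the highest fold enrichments of all 39 arms.

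A higher background calls for a taller pileup, because the lowest fold enrichment in the list is 7.001. Peaks were therefore set side by side at matched background. Between 1.5 and 2 fragments, the 195 peaks of chromosome 16 had a median pileup of 42 (39 to 48), and their fold enrichment was 16.1 (14.8 to 18.3). The 2163 peaks of the other autosomes in this range had 34 (33 to 35) and 13.1 (12.5 to 13.4). From 2 fragments upward, pileup was 56 (51 to 63) against 47 (46 to 48), and fold enrichment 12.8 (11.6 to 14.1) against 11.6 (11.5 to 11.9). Below 0.8 fragments, the 125 peaks of chromosome 16 had a pileup of 18 (15 to 20), and the other autosomes 17.

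At matched background the widths lay closer. Below 0.8 fragments the median was 415 bp (384 to 465) on chromosome 16 and 388.5 bp on the other autosomes, and between 0.8 and 1.1 it was 441 and 424 bp. It was 464.5 bp on chromosome 16 and 462 bp on the other autosomes between 1.1 and 1.5 fragments, and 520 and 526 bp between 1.5 and 2. At 2 fragments or more it was 673 bp (632 to 733) on chromosome 16 and 721 bp (708 to 739) elsewhere, and these intervals overlap. Chromosome 16 had a larger share of its peaks in that widest class, 24.9% against 13.9%. Scaling the pileups and backgrounds of chromosome 16 down by 1.42, the ratio of the median backgrounds, left 947 of its 1106 peaks at or above the lowest pileup and fold of the list. Its density was then 1.45 times that of the other autosomes, in place of 1.70.

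**Figure D3:**
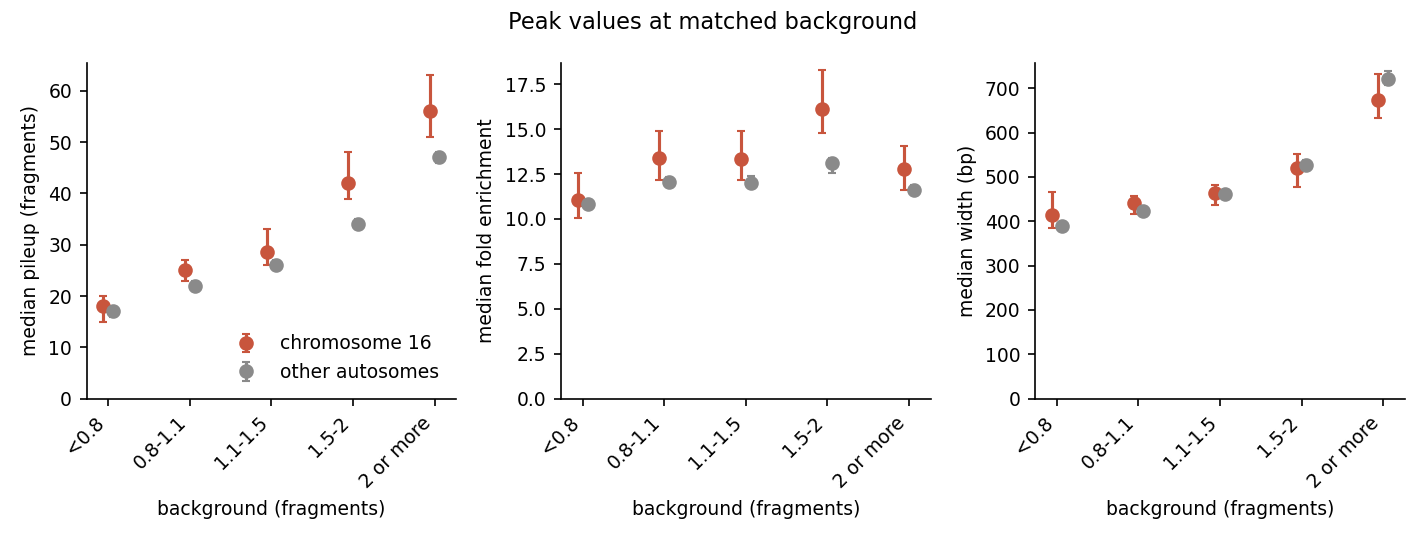
Median pileup, fold enrichment and width of peaks in 5 ranges of background, for chromosome 16 (red) and the other autosomes (grey), with 95% order-statistic intervals that cover counting error only. Pileup at 2 fragments or more is 56 against 47, while widths in the ranges from 1.1 to 2 fragments differ by less than their intervals.

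Density varied along both arms, and nearly every band lay above its kind. Cytogenetic bands are classed by Giemsa stain, from light, gene-rich bands (gneg) through gpos25, gpos50 and gpos75 to the darkest, gene-poor bands (gpos100). Of the 21 stained bands of chromosome 16 with at least 1 Mb of sequence, 20 had a density above the median of their class, compared with 49.6% of 711 such autosomal bands. The exception was 16q22.1. Median background was above that of the median band in 20 of the 21 (39.1% of all bands), pileup in 21 (47.7%) and fold enrichment in 19 (49.9%). Many bands tie at the median background. Neighbouring bands share a background, so these 21 bands are not independent.

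**Figure D4:**
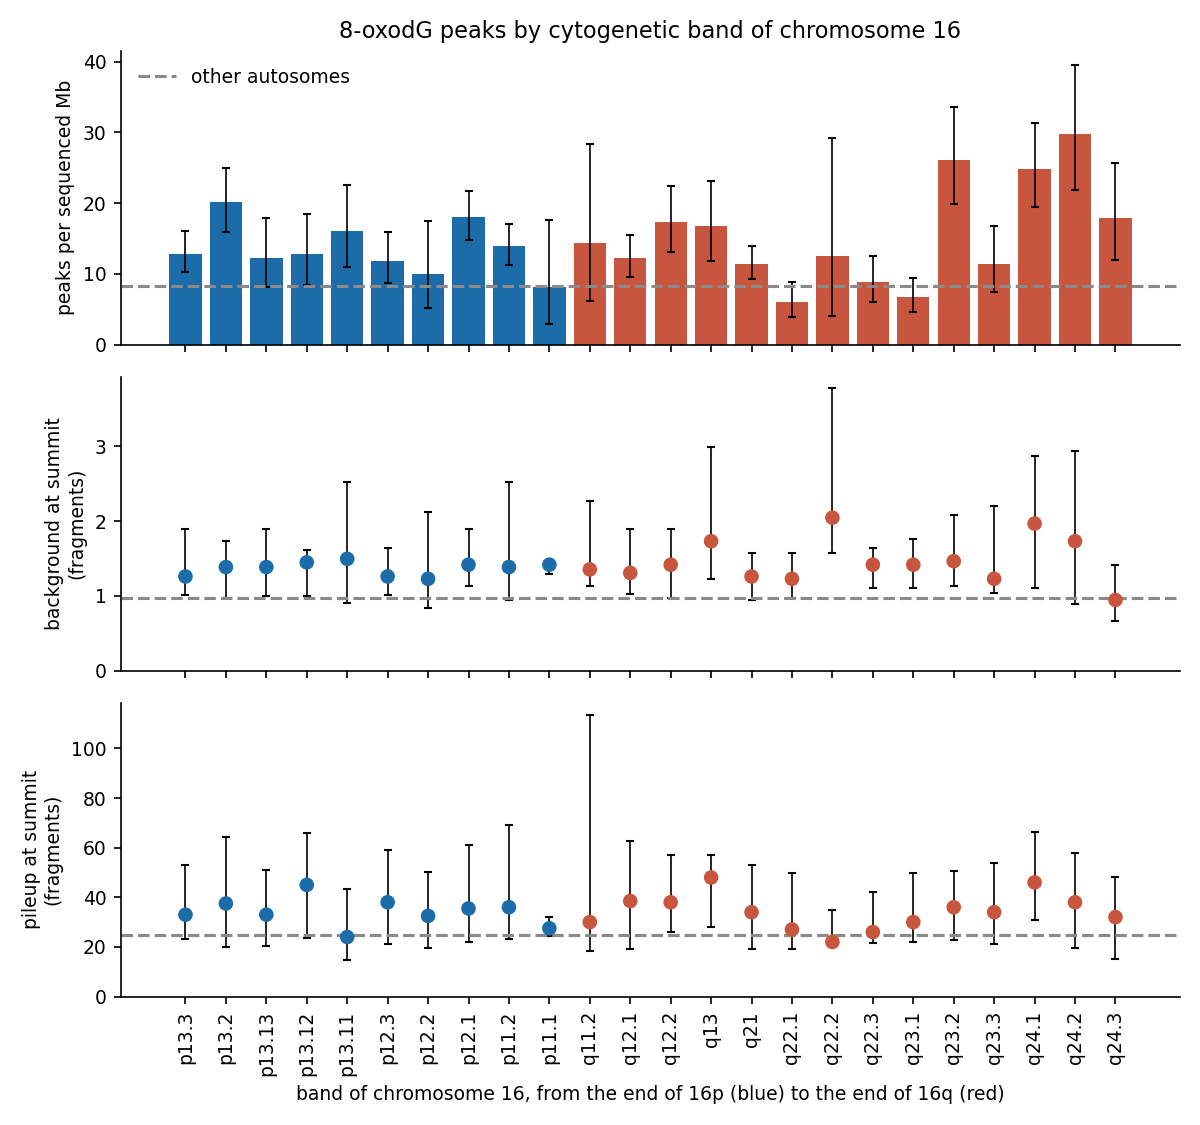
Peaks per sequenced Mb with exact Poisson 95% intervals (top), and medians with quartiles of background (middle) and pileup (bottom), for the 24 bands of chromosome 16 with sequence, ordered from the end of 16p (blue) to the end of 16q (red); the dashed lines give the other autosomes. Densities are lowest in 16q22.1 and 16q23.1, at 5.95 and 6.73, and highest in 16q24.2 at 29.7.

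On the short arm the densest band was not the one at the end. 16p13.3, the terminal band with the alpha-globin cluster, had 81 peaks, or 12.9 per Mb (10.2 to 15.98), the 29th of 39 terminal autosome bands. The next band inward, 16p13.2, had 80 peaks and 20.1 per Mb (15.9 to 25), 1.56 times as many (1.13 to 2.15), and was 5th of 109 gpos50 bands. Windows of 1 Mb held 15, 11, 10, 10 and 9 peaks over the outermost 5 Mb. They then rose to 22 from 5 Mb and 23 from 6 Mb, and reached 25 from 9 Mb. The low run from 1 to 5 Mb was ranked 26th to 31st of 39 arm ends at each distance, and the window from 5 to 6 Mb was ranked 5th.

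Further inward, 16p12.1 had 106 peaks, the most of any band of the chromosome, at 18.0 per Mb (14.7 to 21.7). It was 7th of 109 gpos50 bands and held the window of 26 to 27 Mb with 28 peaks. The band 16p13.12, with 28 peaks at 12.7 per Mb, had the highest median pileup of the short arm (45) and the highest median fold enrichment of the chromosome (19.8). Its neighbour 16p13.11 had more peaks per Mb (16) but lower medians, 24 for pileup and 10.6 for fold enrichment. The lowest density of the short arm's stained bands was 10 in 16p12.2 (12 peaks, 5.17 to 17.5).

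The strongest single enrichment of chromosome 16 lay in 16p13.12. That peak (13127702 to 13129117, 1416 bp) stacked 172 fragments, a fold enrichment of 67.2 and a background of 1.57, and was the 8th highest fold in the whole list. The next were in 16q22.1 (69236035 to 69236786, pileup 154, fold 60.2) and in 16q24.1 (84307262 to 84308013, 142, fold 59.2). They were followed by a peak in 16p13.2 (8456428 to 8457338, pileup 143, fold 58.9) and one in 16q21 (63659039 to 63659810, pileup 138, fold 58.3). These 5 peaks had backgrounds between 1.38 and 1.57, close to the median of the chromosome, and lay in 5 different bands.

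Several of the tallest and widest peaks of chromosome 16 lay in 16p11.2, the stained band nearest the centromere on 16p. Of its 93 peaks 21, or 22.6%, were at least 1 kb wide, against 5.56% of all peaks in the list. The share was larger in 16q24.2, at 12 of 47 or 25.5%. The median width of 16p11.2, 623 bp, was the largest of any band of the chromosome. The highest pileups of chromosome 16 were 258 (33861512 to 33863557) and 254 (33864831 to 33866362), with backgrounds of 7.89 and 14.6 fragments and folds of 29.1 and 16.4. The widest peak spanned 4318 bp (33772105 to 33776422), with a pileup of 183 over a background of 19.3, the highest on the chromosome, and a fold enrichment of 9.04. The second widest, 4064 bp, started at 33805978 with a background of 9.53. In the window from 33 Mb the 17 peaks had a median pileup of 101, a width of 957 bp and a background of 4.09.

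Not all wide peaks of 16p11.2 had such a background. The peak of 3670 bp at 33247628 to 33251297 had a pileup of 61 over 1.101 fragments, a fold of 29.5. A peak of pileup 176 in the same band, at 27788021 to 27789748, had a background of 3.93 and a fold of 35.9. Beyond the band, a peak of 3853 bp in 16p13.2 (8551584 to 8555436) had a background of 1.70. Sequence next to the centromere was sparse in the assembly. The bands 16p11.1 and 16q11.2 had 0.743 and 0.557 Mb of contig, with 6 and 8 peaks, and 16q11.1 had none and could hold no peak.

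On the long arm, density was lower in the bands from 16q21 to 16q23.1 than in 16q12.2 and 16q13, and then rose steeply. The fall was not steady, with 5.95 in 16q22.1, 12.5 in 16q22.2 (5 peaks) and 8.86 in 16q22.3. 16q12.2 had 17.3 peaks per Mb (13.1 to 22.4), and 16q13, the band of the metallothionein cluster, 16.8 (11.8 to 23.2) with a median pileup of 48, the highest of any band of the chromosome. The dark band 16q21, a large gene-poor band with cadherin genes, had 97 peaks at 11.4 per Mb (9.25 to 13.9). This was the highest density of the 75 gpos100 bands of the autosomes, whose median was 5.14. It also had the highest median pileup of that class (34), with a background of 1.26 against 0.818 over gpos100 bands of the other autosomes. Other classes showed smaller or larger ratios to the same class elsewhere, from 1.02 for gpos75 (16q23.1 alone) and 1.47 for gneg to 1.93 for gpos50, 2.19 for gpos100 (16q21 alone) and 2.65 for gpos25 (16q24.2 alone).

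Next to it, the light band 16q22.1, with the E-cadherin gene CDH1, was sparse. It had 25 peaks in 4.2 Mb, or 5.95 per Mb (3.85 to 8.79), the 253rd of 367 gneg bands, and no peak of 1 kb or more. The dark band 16q21 exceeded it 1.92-fold (1.22 to 3.11). The window from 68 Mb had 1 peak, the fewest on the chromosome, and that from 66 Mb had 3. The longest sequenced stretch of chromosome 16 without a peak lay here, 0.782 Mb from 68291724 to 69074128, followed by 0.601 Mb from 66881895 to 67483144. On the short arm the longest was 0.588 Mb in 16p12.3, from 19409918 to 19997590. At the 25 peaks of 16q22.1 the median background was 1.23 fragments, above the median band at 0.944, and between peaks it is not known. Whether short reads can be placed in these stretches was not examined.

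The fragile region in 16q23 was made of a sparse band followed by a dense one. Over 16q23 as a whole there were 118 peaks, or 12.6 per Mb (10.4 to 15.0), and the ratio to the rest of 16q was 0.905 (0.733 to 1.11), an interval that includes 1. The ratio was 1.08 when assembly gaps were counted in the length. The band 16q23.1, in which textbooks place most of WWOX, had 33 peaks in 4.9 Mb, or 6.73 per Mb (4.64 to 9.46), the 30th of 85 gpos75 bands. The neighbouring 16q23.2 had 60 peaks in 2.3 Mb, or 26.1 per Mb (19.9 to 33.6), the 11th of 367 gneg bands and 3.87 times 16q23.1 (2.49 to 6.12). In 16q23.3 density was back at 11.4 (7.35 to 16.8).

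The step near the border of the first pair of these bands was narrow. Windows of 1 Mb from 73 Mb onward held 3, 3, 6, 7 and 8 peaks, and those from 78, 79 and 80 Mb held 29, 19 and 26, before a fall to 7 from 81 Mb. In windows of 0.5 Mb the count went from 4 (77.5 to 78.0 Mb) to 17 (78.0 to 78.5 Mb), the window in which the 2 bands meet. The rise began inside 16q23.1, in whose distal end 3 close peaks lay (78072751 to 78075093). The median background at peak summits was 1.42 in 16q23.1, 1.46 in 16q23.2 and 1.23 in 16q23.3. It was 1.73 (4 peaks) and 1.42 (17 peaks) in the smaller windows before and after the step. Background is known only at called peaks, so its level in the sequence between them was not measured.

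Although sparse, 16q23.1 held strong peaks. Its 33 peaks had a median pileup of 30, a median fold enrichment of 12.5 and a median width of 420 bp. The strongest of 16q23 (77983051 to 77984069, 1019 bp) reached a pileup of 160, with fold enrichment at 55.8, the 62nd in the whole list, and stood near the distal end of 16q23.1. A second in that band (74351422 to 74352033) showed 99 stacked fragments, a 43.7-fold enrichment, at the end of an empty stretch of 0.601 Mb that began at 73750852. In 16q23.2 the strongest peak (78954286 to 78954908) reached 123 fragments and 49.4-fold. The widest peak of 16q23, 1446 bp from 80167998, had a fold of only 8.59 over a background of 6.92.

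For 16q23.1, with 6.73 peaks per Mb, 7 bands of other common fragile sites are given beside it. Densities were 4.15 in 10q21.3, 4.17 in 7q31.1 (IMMP2L), 4.62 in 3p14.2 (FHIT), 5.00 in 2q22.1 and 13q13.3, and 5.86 in 4q22.1. The density was 8.31 in 20p12.1 (MACROD2). Its median pileup of 30 was above 6 of these 7 bands, which had 16.5 to 24, and below 20p12.1 with 34. Its background of 1.42 was above all 7, of which 20p12.1 (1.35) came nearest. The intervals of all 7 bands overlapped that of 16q23.1, 4.64 to 9.46.

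The end of the long arm was the densest part of the chromosome. The 3 bands of 16q24 had 148 peaks, or 24.3 per Mb (20.5 to 28.5), 2.04 times the rest of 16q (1.69 to 2.47). Ends of the same length, 6.13 Mb, were taken from the other autosome arms, and 16q24 was 4th of 39, after 19q (30.2), 19p (27.8) and 20q (25.2). It exceeded the pooled other ends 1.52-fold (1.28 to 1.79). The end of 16p, with 13.1 per Mb, was 26th.

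Within 16q24 the densest band was not the outermost. 16q24.2 had 47 peaks at 29.7 per Mb (21.9 to 39.6), 4th of 75 gpos25 bands, and 16q24.1, which holds the forkhead genes FOXF1 and FOXC2, had 72 at 24.8 (19.4 to 31.3), 15th of 367 gneg bands. The terminal 16q24.3, with the Fanconi anaemia gene FANCA, had 29 at 17.9 (11.97 to 25.7), the 17th of 39 terminal bands. The window from 85 Mb had 37 peaks, the most on the chromosome and the 15th of all autosomal windows. It was followed by those from 86 Mb (30), 87 Mb (29), 78 Mb in 16q23.2 (29) and 26 Mb in 16p12.1 (28). Counted from the end of the chromosome, the outermost 1 Mb had 11.1 peaks per Mb and ranked 29th of the 39 arms. The next had 37.8 and the 4th had 41.0, each ranked 2nd.

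Median background and pileup were lower in each band of 16q24 toward the end, but the counting intervals of neighbouring bands overlapped. In bins of 1 Mb from the end inward, background did not change steadily, at 0.975, 1.16, 0.991, 2.20, 1.42 and 2.36. The median background was 1.97 fragments in 16q24.1, the 2nd highest of 711 autosomal bands, 1.73 in 16q24.2 and 0.944 in 16q24.3, the level of the median arm. Pileup fell with it, from 46 to 38 and 32. Fold enrichment was 15.01, 11.8 and 12.103. Peaks of 16q24 were wide, with a median of 590.5 bp (519 to 645), the 4th largest among the 39 ends. Of its 148 peaks 26, or 17.6% (11.8 to 24.7%), were at least 1 kb wide, against 5.56% of all peaks in the list. Shares at ends of this length ranged from 0% (3p, 9p and 15q) to 26.2% (2q). The ends of 19p (21.2%) and 11p (20.9%) also had larger shares than 16q24.

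**Figure D5:**
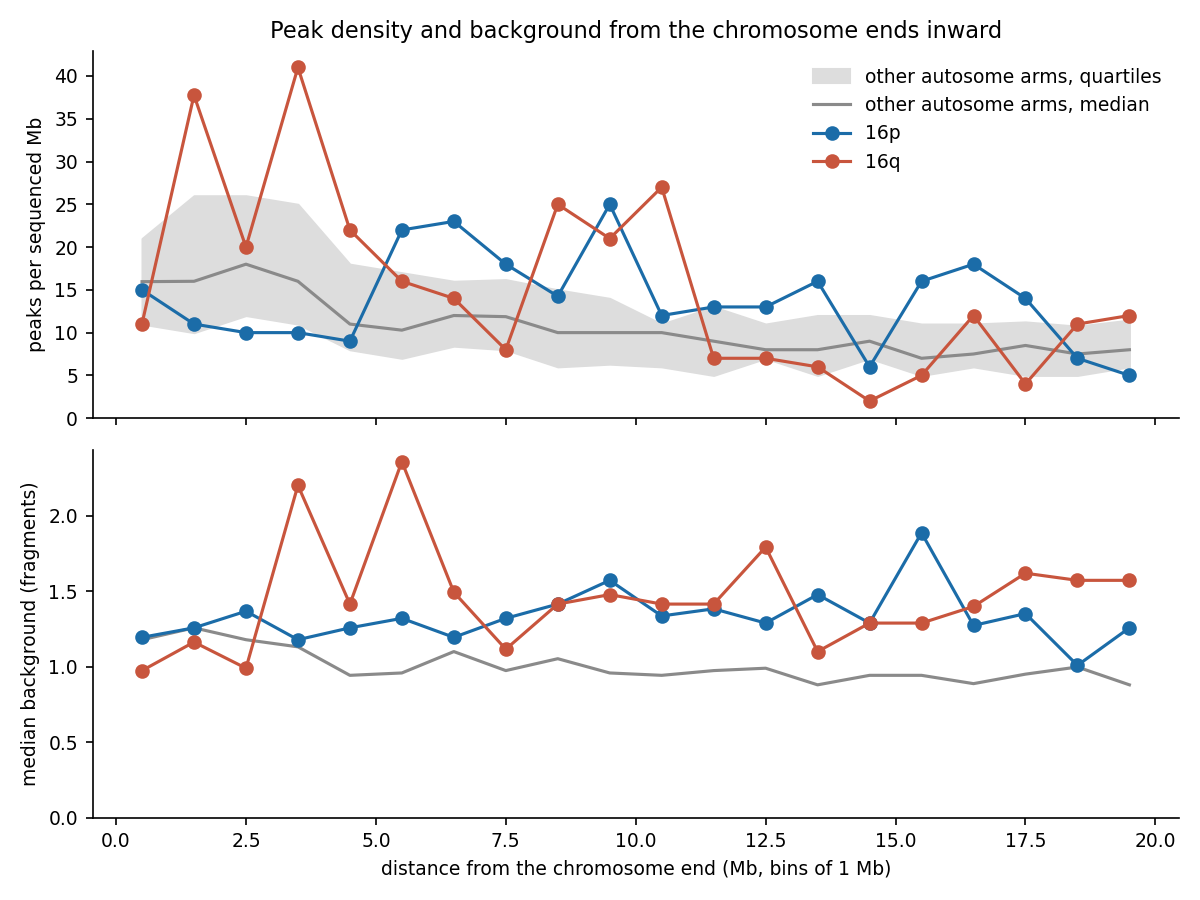
Peaks per sequenced Mb (top) and median background (bottom, fragments) in bins of 1 Mb from the chromosome end inward, for 16p (blue), 16q (red) and the other autosome arms (grey line, median over 36 or 37 arms; shading, quartiles of density). On 16q density peaks at 37.8 and 41.0 between 1 and 4 Mb from the end and rises again to 27 between 10 and 11 Mb, and on 16p it lies at 9 to 11 from 1 to 5 Mb.

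Single peaks of 16q24 included tall, narrow ones and wide ones. In 16q24.1, besides the peak of fold 59.2, there were peaks at 84712343 to 84713212 (pileup 127, fold 49.8) and at 84631039 to 84631659 (pileup 83, fold 47.0 over a background of 0.786). The widest peak of the long arm was in 16q24.2, 4007 bp from 87111065 to 87115071, with 95 fragments at its summit, a 30.9-fold enrichment. It was separated by 97 bp from the next peak (87115169 to 87115934, pileup 44, fold 20.8), the closest pair on 16q. The closest pair on 16p, 59 bp apart, was in 16p13.13 (12381634 to 12382353 and 12382413 to 12383250), with pileups of 15 and 23.

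Neighbouring peaks were closer on chromosome 16, as its density entails. The median distance between midpoints was 35032 bp on 16p and 43267 bp on 16q, and 64036 bp on the other autosomes. Gaps of at most 1 kb joined 34 of 1104 neighbouring pairs, or 3.08%, against 3% of all pairs on the autosomes. Gaps of at most 10 kb were found in 207 pairs, or 18.8%, against 15.1%. Windows with at least 20 peaks numbered 18 of 79, or 22.8%, where all autosomes had 5.79%. Counts per window averaged 13.97 ± 7.45 (SD over 79 windows), and 8.19 ± 6.21 over 2613 windows of the other autosomes. The variance-to-mean ratio was 5.12 on 16q and 2.69 on 16p, so counts were more even on 16p than on 16q. It was 2.99 on chromosome 20 and 3.17 on chromosome 8, near that of 16p, and 7.69 on 19q. The 4.71 of the other autosomes pools 21 chromosomes of unlike density.

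Runs of peaks with gaps of at most 10 kb were counted by band on chromosome 16 only, so no share over all autosomes is given. Of the 34 runs with at least 3 peaks, 9 were in 16p11.2 (93 peaks in 6.7 Mb). Another 5 were in 16q24.1 (72 peaks in 2.9 Mb) and 4 in 16p12.1 (106 peaks in 5.9 Mb). Those in 16p11.2 started at positions from 27865217 to 33843231, so not all were next to the centromere. The longest by number was in 16q24.3, with 7 peaks over 37984 bp (87573614 to 87611597), a highest pileup of 96 and a median background of 0.692. The next had 6 peaks over 23132 bp in 16p11.2 (33843231 to 33866362) with a median background of 7.49, and 5 peaks over 19295 bp in 16q24.2 (86921875 to 86941169) with 2.67.

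Across the 22 stained bands of chromosome 16, density rose with median width (Spearman's rho = 0.570), pileup (0.490) and background (0.490), and less with fold enrichment (0.226). These bands share libraries and neighbours, so the values are descriptions. Across single peaks, the relations on chromosome 16 were much like those elsewhere. Pileup rose with background with rho = 0.549 on chromosome 16 and 0.559 on the other autosomes. Background is derived from pileup and no fold lies below 7.001, so this relation is partly built in. Fold enrichment rose with width with 0.553 and 0.556. In these combined libraries, more copies of a region in the cells, easier recovery of its DNA and more 8-oxodG cannot be told apart.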

How the data were processed

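The members and band lists were chosen with earlier results of these data known. Per the file headers, the deposited list gives each peak's position, width, summit, signal as a pileup, fold enrichment, p-value and q-value. The deposited p-values and q-values are on the −log10 scale, as their values show. Other deposited values (positions, widths) are in bp. Per the submitters' processing notes, BWA, SAMtools, bedtools and hg18 were used, without versions or roles. Peak caller, control and pooling: not given in the sources used here. Depth is unknown.

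The columns for fold, p and q lack their decimal points, which were put back from the Poisson relation between pileup, background and p, which all 1106 peaks of chromosome 16 met within 0.01 on the −log10 scale. On 2000 simulated rows made with the same relation, the procedure returned 100% of fold and p. This checks the placing of the points and not the relation itself. For q, the highest placement not above p was taken. Background is (pileup + 1) / fold − 1. Its lowest value in the list is 0.4602 fragments. Between 0.47 and 2 fragments, 96.2% of peaks had a background on steps of 0.0314 fragments, so medians of arms and bands often tie.

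Bands came from circlize 0.4.16 and contigs from IRanges 2.36.0 under R 4.3.3, and computations used Python 3.11.15 with scipy 1.17.1. Peaks were placed by midpoint. Windows of 1 Mb needed 50% sequence. Named peaks were the 5 of highest fold, pileup and width, the 3 of highest fold and the widest in 16q23 and in 16q24, the closest pair and longest empty stretch of each arm, and the 5 windows with most and with fewest peaks. Other peaks, stretches, windows and runs named were chosen after their values were seen. No test was run, because the list has no value per sample. Of the bands fixed for comparison with 16q23, 1 is not reported here. Alternatives covered thresholds, joining, position, length, bands, comparison arms and scaling.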

Additional observations from a re-analysis of the deposited data

How the results depend on the processing

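No paired analysis was possible because the list holds no value per sample, and no replicate could be left out for the same reason. Of 81 alternative values, 55 stayed within the counting interval of the reported value with the same direction, 25 left it with the same direction and 1 turned direction. The turned value was the ratio of 16q23 to the rest of 16q, 1.08 with assembly gaps counted in the length. It too lay within the counting interval of the reported value, 0.733 to 1.11. This setting adds the heterochromatin gap to the rest of the arm. The following ratios are to the other autosomes, for chromosome 16, 16p and 16q in that order. They were 2.01, 2.10 and 1.94 for peaks of at least the median fold enrichment, and 2.20, 2.27 and 2.14 for those of at least the median −log10 q. With covered bases, chromosome 16 had 1.88 and 16p 2.04, and 16q24 was 2.71 times the rest of 16q. The settings based on background were chosen after the data were seen. With peaks divided by the ratio of median backgrounds of chromosome 16 and the other autosomes the density ratios were 1.20, 1.24 and 1.16, and with chromosome 16 scaled to the background of the others 1.45, 1.52 and 1.399. Against equal ends of other arms, 16q24 had 1.80 by −log10 q, 1.34 with chromosome 16 scaled and 1.07 with divided peaks. The last divides by the ratio for the whole chromosome, not by that of 16q24 to the other ends. Among peaks of at least the median −log10 q, the ratios of medians were 1.06 for width, 1.22 for pileup and 1.04 for fold enrichment. Within the middle 50% of background on chromosome 16 they were 1.00 for width and 1.21 for pileup. The pileup ratio was 1.35 as a mean of logarithms. The background ratio was 1.47 both without chromosome 19 and without the arms of raised background. The cause of these shifts was not tested. Depth is unknown, and bands of under 20 peaks, such as 16p12.2, have wide counting intervals.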
